A study of Mus musculus with 8 samples.

Results

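The urea cycle and the genes that feed or back it up were followed as 10 transcripts in mouse liver. They were taken by symbol from the deposited expression table by a rule that used no measured value, although earlier results of these data were known when the genes were chosen: Cps1, Otc, Ass1, Asl, Arg1, Nags, Slc25a15 and Gls2, which are mostly periportal, and Glul and Oat, which are pericentral. All 10 were found among 52110 named rows, and all 10 passed the filter of a mean of at least 1 FPKM (sequenced fragments scaled by transcript length and by library depth) that left 11274 genes for testing. The study sequenced total RNA in 8 liver libraries, 4 per group, from wild-type (WT) mice on CDAHFD, a high-fat diet that lacks choline and holds defined amino acids, given to bring on nonalcoholic steatohepatitis (NASH), a fatty and inflamed liver. The mice received, by vein, circulating extracellular vesicles (EVs), small membrane particles shed by cells, of human volunteers. In the ctr_hEV group the volunteers had a sham procedure, and in the RIC_hEV group they had remote limb ischemic conditioning (RIC), brief interruptions of blood flow to a limb. Both groups therefore share the diet and the injection of human vesicles, and a liver without the diet or without vesicles was not analysed here. The labels leave out the animals' age and sex, the vesicle dose and timing, and the number of vesicle donors. They also do not say whether the 4 libraries of a group come from separate animals, so p-values measure only the spread between these libraries, which may be technical.

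Ammonia is toxic, and the liver removes it in 2 steps arranged along the blood's path through the lobule. Periportal hepatocytes, which meet the blood first, turn most of it into urea by way of the cycle, with carbamoyl phosphate made in mitochondria and with citrulline, argininosuccinate, arginine and ornithine as the turning intermediates. Hepatocytes beside the central vein catch what is left by joining it to glutamate, which makes glutamine, and Oat supplies glutamate there from ornithine. In bulk liver RNA, fewer cells of a zone and less RNA per cell cannot be told apart, and no library here reports on a zone by itself.

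The libraries held an estimated 19300000 to 28800000 fragments each, and mitochondrially encoded protein genes took 14.1 to 17.7% of all FPKM. ctr_hEV 1 and ctr_hEV 3 stood apart from the other 6: on the first principal component of all tested genes, which held 44.4% of the variance, they lay at -36.1 and -23.3, and the others lay between -2.36 and 16.3. Of the other ctr_hEV libraries, ctr_hEV 2 lay at -2.36, below every RIC_hEV library. ctr_hEV 4 lay at 16.3, level with RIC_hEV 1, and the RIC_hEV libraries ran from 4.75 to 16.3. Markers of some other cell types ran high in these 2 libraries, which were the highest pair for 6 of 6 bile duct, 12 of 14 stellate and 11 of 18 macrophage genes, but for 0 of 12 endothelial and 1 of 6 lymphocyte and plasma cell genes, against 30.0% of all tested genes. Hepatocyte identity was plain in all 8, with 20 secreted hepatocyte proteins such as albumin summing to 44683 to 60571 FPKM. Values without ctr_hEV 1 and ctr_hEV 3 are given for the 10 genes and for the marker and pathway lists. In those values ctr_hEV 2 and ctr_hEV 4 alone stand for the ctr_hEV group. The median tested gene was lower in RIC_hEV by a log2 difference of -0.11 (-0.03 without ctr_hEV 1 and ctr_hEV 3). For the 10 genes each difference is given as fitted and relative to that gene, and for other genes as fitted.

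The 10 transcripts spanned a wide range of FPKM. FPKM divides by an annotated gene length, and no label names the annotation used, so the order between genes depends on those lengths. Ass1 led with 1006 ± 252 FPKM (SD, n = 8 libraries), rank 54 of all tested genes. Cps1 followed at 802 ± 138 FPKM and Arg1 at 672 ± 96.2 FPKM. Oat lay at 449 ± 152 FPKM and Glul at 232 ± 78.3 FPKM. All 5 ranked at 192 or better. Asl, at 100.1 ± 28.2 FPKM, and Slc25a15, at 90.6 ± 13.0 FPKM, formed the next level. Gls2 was at 53.4 ± 7.92 FPKM, Otc at 35.2 ± 8.55 FPKM and Nags at 13.8 ± 1.95 FPKM. Most neighbours in this order overlapped between libraries. The breaks were between Slc25a15 (68.2 FPKM or more in every library) and Gls2 (62.7 FPKM or less), and between Otc (20.0 FPKM or more) and Nags (16.2 FPKM or less). Even Nags rested on an estimated 770 to 1200 fragments per library, so counting error was small beside the spread between libraries.

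Between the vesicle groups, 4 of the 10 genes were higher in RIC_hEV by limma's unadjusted p under 0.05, namely Cps1, Ass1, Asl and Slc25a15, and 0 were lower. Over all tested genes the same rule took 2.63% as higher and 11.3% as lower. None of the 10 passed limma's Benjamini-Hochberg adjusted p of 0.05 over the whole table, a threshold met by 4 of 11274 genes (0.0355%). The groups did not overlap for Asl and Slc25a15, both higher in RIC_hEV, against 1.31% of all tested genes not overlapping as higher and 4.56% as lower. As fitted, 9 of the 10 had a higher mean in RIC_hEV, where 27.0% of all tested genes did, and the median log2 difference of the 10 was 0.31. Other hepatocyte genes also often had a higher mean there. These were 16 of 21 other pericentral markers, 12 of 18 other periportal markers and 14 of 20 secreted hepatocyte proteins. Among 19 enzymes that feed nitrogen in, 9 did. A higher mean was therefore not particular to the 10.

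**Figure D1:**
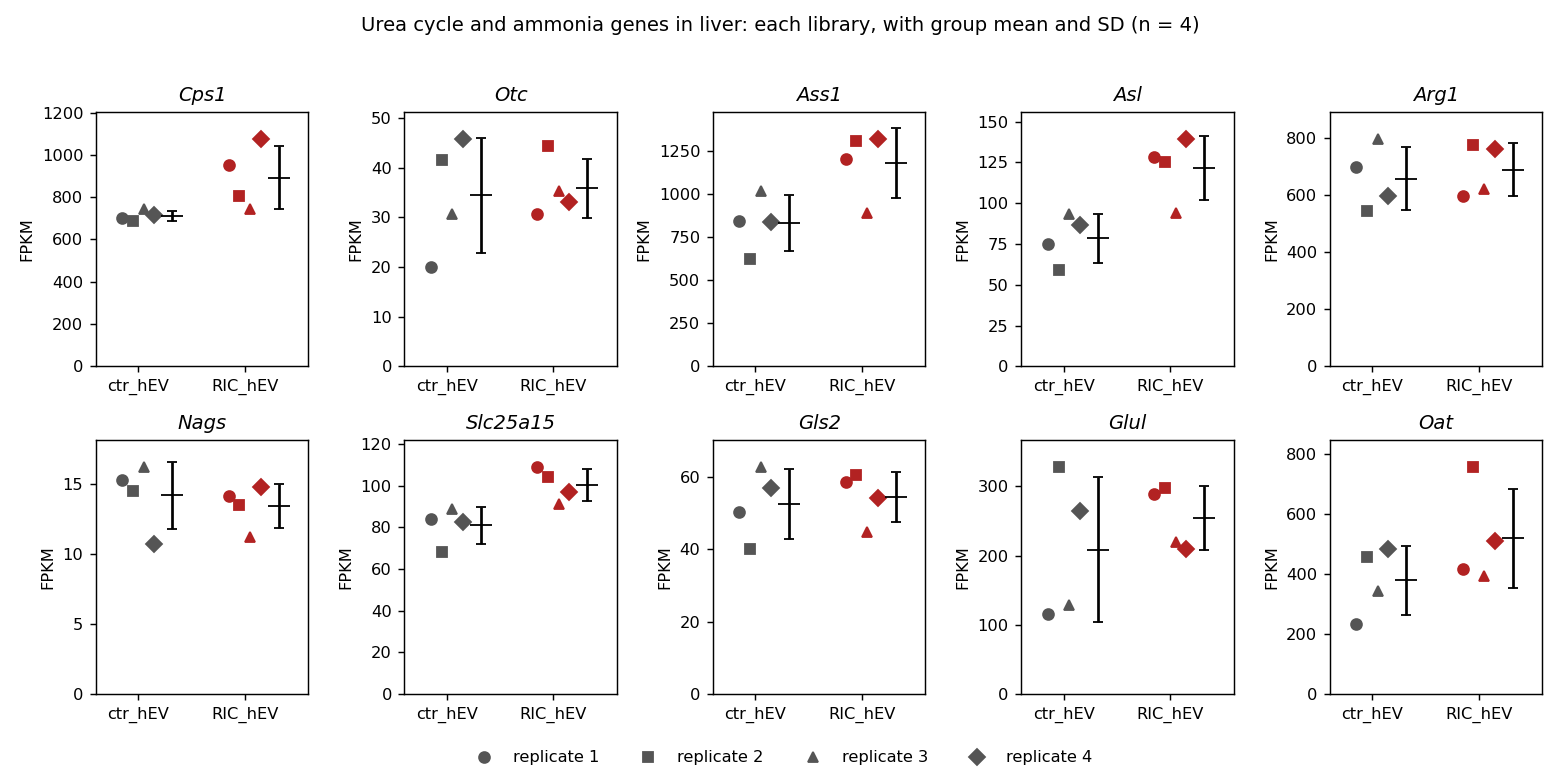
FPKM of each of the 10 genes in the 4 ctr_hEV (grey) and 4 RIC_hEV (red) libraries, one marker shape per replicate number, with the group mean and SD as a bar. The groups do not overlap for Asl and Slc25a15, and ctr_hEV 1 and ctr_hEV 3 are the 2 lowest libraries for Otc, Glul and Oat. For Otc, ctr_hEV 3 and RIC_hEV 1 are nearly level.

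The entry of ammonia into the cycle is carried out by Cps1, the mitochondrial enzyme that makes carbamoyl phosphate and sets the pace of the cycle. Cps1 measured 701, 688, 745 and 714 FPKM across ctr_hEV 1 to 4 and 951, 805, 743 and 1073 FPKM across RIC_hEV 1 to 4. Libraries RIC_hEV 1, 2 and 4 lay above every ctr_hEV library, and RIC_hEV 3 lay among them. The means were 712 ± 24.6 and 893 ± 148 FPKM (SD, n = 4 each), a ratio of 1.25. The log2 difference was 0.31 (95% interval 0.04 to 0.59, 0.42 relative to the median gene), with limma adjusted p = 0.354. The ctr_hEV libraries were close together, with a coefficient of variation of 3.45% against 16.6% in RIC_hEV.

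Nags makes N-acetylglutamate, the activator without which Cps1 does not work. Nags measured 15.3, 14.5, 16.2 and 10.7 FPKM across ctr_hEV 1 to 4 and 14.1, 13.5, 11.2 and 14.8 FPKM across RIC_hEV 1 to 4. The groups overlapped, and the log2 difference was -0.07 (95% interval -0.38 to 0.24) as fitted and 0.04 relative to the median gene, so its direction turns with the reference, with limma adjusted p = 0.819. Gls2, the liver glutaminase that releases ammonia from glutamine beside the cycle, measured 50.2, 40.0, 62.7 and 56.8 FPKM across ctr_hEV 1 to 4 and 58.5, 60.4, 44.7 and 54.1 FPKM across RIC_hEV 1 to 4. Its groups overlapped too, and its log2 difference was 0.06 (95% interval -0.27 to 0.40, 0.17 relative to the median gene), with limma adjusted p = 0.842. The Gls2 interval includes the difference fitted for Cps1, and the Nags interval ends below it. The Cps1 interval, 0.04 to 0.59, overlaps both, and whether these genes differ from Cps1 was not tested.

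Otc joins carbamoyl phosphate to ornithine and makes citrulline. Otc measured 20.0, 41.6, 30.6 and 45.7 FPKM across ctr_hEV 1 to 4 and 30.6, 44.3, 35.4 and 33.1 FPKM across RIC_hEV 1 to 4. The RIC_hEV range lay inside the ctr_hEV range, with ctr_hEV 1 and ctr_hEV 3 at the low end. At the digits given, ctr_hEV 3 and RIC_hEV 1 were level at 30.6 FPKM. The means were 34.5 ± 11.6 and 35.9 ± 5.97 FPKM, and the log2 difference was 0.11 (95% interval -0.40 to 0.62, 0.22 relative to the median gene), with limma adjusted p = 0.819. Without ctr_hEV 1 and ctr_hEV 3 it was -0.29, so its direction rests on those libraries.

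Slc25a15 is the mitochondrial carrier that brings ornithine in for Otc and takes citrulline out. Slc25a15 measured 84.0, 68.2, 89.0 and 82.6 FPKM across ctr_hEV 1 to 4 and 109, 104, 91.4 and 97.0 FPKM across RIC_hEV 1 to 4. All 4 RIC_hEV libraries lay above all 4 ctr_hEV libraries, with 91.4 over 89.0 FPKM as the nearest pair. The means were 80.9 ± 8.94 and 100.4 ± 7.79 FPKM, a ratio of 1.24. The log2 difference was 0.31 (95% interval 0.06 to 0.56, 0.42 relative to the median gene), with limma adjusted p = 0.354.

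In the cytosol, Ass1 joins citrulline to aspartate, which brings in the second nitrogen of urea. Ass1 measured 846, 621, 1016 and 840.3 FPKM across ctr_hEV 1 to 4 and 1206, 1310, 889 and 1318 FPKM across RIC_hEV 1 to 4. RIC_hEV 1, 2 and 4 lay above every ctr_hEV library, and RIC_hEV 3 lay below ctr_hEV 3. The means were 831 ± 162 and 1181 ± 201 FPKM, a ratio of 1.42. The log2 difference was 0.51 (95% interval 0.13 to 0.89, 0.62 relative to the median gene), with limma adjusted p = 0.353. Of the 31-base stretches of the Ass1 exons, 43.1% also occur in Gm5424, a near copy listed at 160.1 ± 30.2 FPKM in ctr_hEV and 224 ± 39.2 FPKM in RIC_hEV, so the share of reads placed on each is uncertain.

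Asl splits argininosuccinate into arginine and fumarate, and it showed the largest difference of the 10. Asl measured 74.7, 59.1, 93.3 and 86.6 FPKM across ctr_hEV 1 to 4 and 128, 125, 93.9 and 139 FPKM across RIC_hEV 1 to 4. The groups did not overlap, but RIC_hEV 3 and ctr_hEV 3 were nearly level. The means were 78.4 ± 15.0 and 122 ± 19.5 FPKM, a ratio of 1.55. The log2 difference was 0.63 (95% interval 0.27 to 1.0, 0.74 relative to the median gene), with limma adjusted p = 0.332. By p, Asl ranked 100 of the 11274 tested genes.

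Arg1 closes the cycle by splitting arginine into urea and ornithine. Arg1 measured 696, 543, 794 and 595 FPKM across ctr_hEV 1 to 4 and 596, 774, 620.1 and 760.3 FPKM across RIC_hEV 1 to 4. The RIC_hEV range lay inside the ctr_hEV range. The means were 657 ± 111 and 688 ± 92.7 FPKM, and the log2 difference was 0.07 (95% interval -0.25 to 0.39, 0.18 relative to the median gene), with limma adjusted p = 0.812. Leaving out ctr_hEV 1 and ctr_hEV 3, the log2 difference was 0.26 for Arg1, 0.18 for Gls2 and 0.09 for Nags. As fitted over all 8 libraries, Cps1, Ass1 and Asl had log2 differences of 0.31 to 0.63, and Otc and Arg1 had 0.11 and 0.07. The difference between those differences was not tested, and the order depended on the setting. With quantile normalization, Cps1 was at 0.14 and Otc at 0.15. Without ctr_hEV 1 and ctr_hEV 3, Cps1 was at 0.33 beside Arg1 at 0.26.

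**Figure D2:**
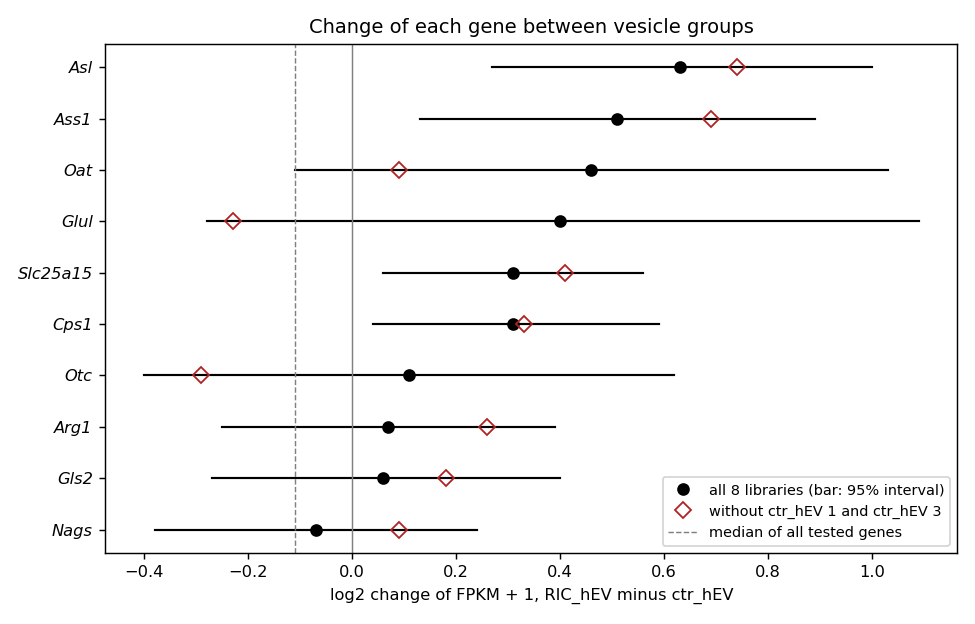
Log2 difference of FPKM + 1 between the groups (RIC_hEV minus ctr_hEV) for each gene, as black points with 95% intervals from limma over 8 libraries, and as open red diamonds without ctr_hEV 1 and ctr_hEV 3. Asl, Ass1, Slc25a15 and Cps1 stay between 0.33 and 0.74 without those libraries, while Oat goes to 0.09 and Glul and Otc go below 0. That fit keeps ctr_hEV 2, the lowest of the 8 libraries for Asl, Ass1, Slc25a15 and Cps1. The dashed line marks the median tested gene.

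Of the pericentral pair, Glul encodes glutamine synthetase, which in liver is confined to the few hepatocyte layers around the central vein. Glul measured 115, 328, 128 and 264 FPKM across ctr_hEV 1 to 4 and 289, 298, 220.2 and 209 FPKM across RIC_hEV 1 to 4. ctr_hEV 1 and ctr_hEV 3 were lowest of all 8 libraries and ctr_hEV 2 was highest, so the RIC_hEV range lay inside the ctr_hEV range. The means were 209 ± 104 and 254 ± 45.9 FPKM, with coefficients of variation of 49.8% and 18.0%. The log2 difference was 0.40 (95% interval -0.28 to 1.09, 0.52 relative to the median gene), with limma adjusted p = 0.51, and it was -0.23 without ctr_hEV 1 and ctr_hEV 3.

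Oat, ornithine aminotransferase, links ornithine to glutamate and proline. Oat measured 232, 458, 342 and 484 FPKM across ctr_hEV 1 to 4 and 418, 757, 392 and 509 FPKM across RIC_hEV 1 to 4. The groups overlapped, with RIC_hEV 2 and RIC_hEV 4 above every ctr_hEV library. The means were 379 ± 116 and 519 ± 166 FPKM, and the log2 difference was 0.46 (95% interval -0.11 to 1.03, 0.57 relative to the median gene), with limma adjusted p = 0.411. Over the 6 libraries other than ctr_hEV 1 and ctr_hEV 3, it was 0.09. The 2 libraries left out were the lowest pair for Glul, Oat and Otc, for 14 of 21 other pericentral hepatocyte markers (66.7%) and for 5 of 18 other periportal markers (27.8%), against 5.01% of all tested genes. The other pericentral markers summed to 2793 and 3100 FPKM in them and to 5600.1 FPKM or more in the remaining 6. Much of that sum was Cyp2e1, named here after its values were seen. Cyp2e1 was at 1182 and 1329 FPKM in ctr_hEV 1 and ctr_hEV 3 and at 3129 to 3952 FPKM in the remaining 6.

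Promoter sequence was read for the genes that varied together, Glul with Oat and Otc, and for Ass1 from the other set. The windows run from 250 bases before to 50 bases after the RefSeq start (GRCm38.p6, the mm10 assembly), 5′ to 3′ on the gene's strand: chr1:153899679-153899978 on the plus strand for Glul, chr7:132576349-132576648 on the minus strand for Oat, chrX:10252055-10252354 on the plus strand for Otc and chr2:31470020-31470319 on the plus strand for Ass1. Capitals mark a CCAAT box, the motif CCAAT on either strand.
Glul: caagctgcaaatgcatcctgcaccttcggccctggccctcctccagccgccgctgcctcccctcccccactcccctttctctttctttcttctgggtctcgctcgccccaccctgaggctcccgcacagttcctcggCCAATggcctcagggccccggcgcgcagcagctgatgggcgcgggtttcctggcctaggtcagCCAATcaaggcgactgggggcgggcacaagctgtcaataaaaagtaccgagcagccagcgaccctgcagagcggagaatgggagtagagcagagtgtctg
Oat: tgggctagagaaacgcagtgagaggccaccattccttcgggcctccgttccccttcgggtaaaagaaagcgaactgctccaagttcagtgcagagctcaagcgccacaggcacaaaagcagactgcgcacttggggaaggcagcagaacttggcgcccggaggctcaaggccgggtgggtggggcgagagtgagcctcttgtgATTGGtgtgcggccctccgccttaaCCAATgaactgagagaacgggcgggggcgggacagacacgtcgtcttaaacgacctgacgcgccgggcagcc
Otc: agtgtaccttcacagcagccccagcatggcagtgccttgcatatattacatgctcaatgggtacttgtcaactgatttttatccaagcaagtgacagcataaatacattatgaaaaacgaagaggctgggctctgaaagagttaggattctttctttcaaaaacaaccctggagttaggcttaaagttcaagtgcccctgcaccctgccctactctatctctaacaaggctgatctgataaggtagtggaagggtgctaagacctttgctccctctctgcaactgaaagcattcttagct
Ass1: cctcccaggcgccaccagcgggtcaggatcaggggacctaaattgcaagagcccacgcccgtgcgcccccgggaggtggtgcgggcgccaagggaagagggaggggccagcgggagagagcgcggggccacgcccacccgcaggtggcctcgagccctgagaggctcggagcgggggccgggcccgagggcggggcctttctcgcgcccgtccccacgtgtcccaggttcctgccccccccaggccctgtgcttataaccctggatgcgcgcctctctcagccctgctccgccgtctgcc
Glul holds CCAAT with first bases at -113 and -50 from the start, and Oat holds it at -22 and, on the opposite strand, at -47. CCAAT occurs in 37.4% of all 32851 promoter windows, so its presence here is common. The other motifs searched on both strands were the cAMP response element TGACGTCA (1.79% of windows), C/EBP as TTGCNNCAA (2.08%), TCF/LEF as CTTTGA (16.0%), HNF4 as CAAAGTCCA (0.475%) and TATAAA (13.6%), and none of them matched in these 4 windows. Windows were also read for Nags, which holds CTTTGA on the opposite strand, and for Slc25a15, which holds none of the 6 motifs in its 2 windows. GC content set the windows apart, at 74.0% in Ass1, 64.3% in Glul, 61.7% in Oat and 44.3% in Otc, beside a median of 52.7% over all windows. Promoters of Cps1, Asl, Arg1 and Gls2 were not used here.

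In mm10 coordinates with GENCODE gene models, Cps1 spans chr1:67123026-67231259, Otc chrX:10252305-10321024 and Ass1 chr2:31470207-31520672, all on the plus strand. Glul spans chr1:153899944-153909723 on the plus strand, and it overlaps Teddm2 on the minus strand and Mir8114 on its own. Asl spans chr5:130011258-130029247, Arg1 chr10:24915221-24927484, Slc25a15 chr8:22375551-22398597 and Oat chr7:132557478-132576398, all on the minus strand. Nags spans chr11:102145513-102149477 and Gls2 chr10:128194457-128210004, both on the plus strand, and each overlaps a gene on the minus strand, Gm11586 and Spryd4. Oat overlaps Fgfr2 on its own strand. No source here says whether counting used strand, so reads in those overlaps could belong to either gene. Glul shares 15.5% of its 31-base stretches with the processed pseudogene Glns-ps1, which was listed at 2.02 ± 1.16 FPKM in ctr_hEV and 2.57 ± 0.869 FPKM in RIC_hEV.

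Over the 8 libraries the 10 genes fell into sets by how they varied, described by Pearson's r of log2(FPKM + 1) over 45 pairs. The libraries share groups and depth differences, and r is given as a description. Ass1 and Asl had r = 0.97, Ass1 and Slc25a15 0.93, Asl and Slc25a15 0.93, and Cps1 and Asl 0.86. Without ctr_hEV 1 and ctr_hEV 3 these were 0.99, 0.93, 0.94 and 0.85. This set had no sharp edge. Gls2 had r = 0.74 with Ass1, 0.68 with Slc25a15, 0.66 with Asl and 0.38 with Cps1. Arg1 had 0.67 with Ass1, 0.52 with Asl, 0.47 with Slc25a15 and 0.32 with Cps1. Leaving out the same 2 libraries, the Gls2 values were 0.80, 0.77, 0.79 and 0.51, and the Arg1 values 0.83, 0.77, 0.62 and 0.59. A separate set was Otc with Oat at r = 0.85, Otc with Glul at 0.80 and Glul with Oat at 0.78, which were 0.54, 0.44 and 0.27 without those libraries. Otc, although an enzyme of the cycle, had r of -0.05 with Cps1, -0.04 with Ass1, 0.07 with Asl and -0.10 with Slc25a15 over 8 libraries. Leaving out ctr_hEV 1 and ctr_hEV 3, these were -0.73, -0.41, -0.50 and -0.51, so the values near 0 rest on those libraries. Arg1 and Glul had r = -0.55 and Otc and Nags -0.56, which were -0.42 and -0.40 without those libraries. No other gene of the 10 shared the Otc, Oat and Glul pattern of having ctr_hEV 1 and ctr_hEV 3 as its 2 lowest libraries, and Nags had them as its 2 highest.

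**Figure D3:**
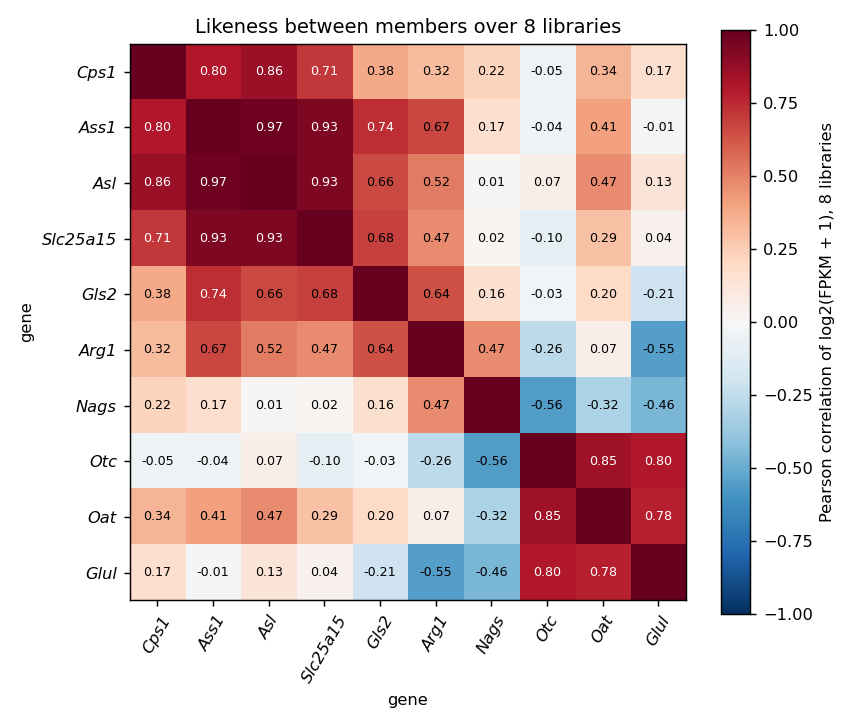
Pearson correlation of log2(FPKM + 1) over the 8 libraries for each pair of the 10 genes, with red for positive and blue for negative values. Pairs among Cps1, Ass1, Asl and Slc25a15 lie at 0.71 to 0.97, and pairs among Otc, Oat and Glul at 0.78 to 0.85. The first block has no sharp edge, since Gls2 has 0.74 and Arg1 has 0.67 with Ass1.

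Across all tested genes, the closest to Ass1 by the same measure were Asl (0.972), Sephs2 (0.962) and Ddit4 (0.945), and the closest to Asl were Sephs2 (0.984), Mat1a (0.972) and Ass1. Slc25a15 was closest to Sephs2 (0.954), Cln8 (0.939) and Slc25a22 (0.934), the last a mitochondrial glutamate carrier. For Cps1 they were Irf9 (0.964), Arhgef19 (0.944) and Ttc7b (0.944). Glul was closest to Rgs16 (0.964), Glns-ps1 (0.962) and the glutamate transporter Slc1a2 (0.957), which were 0.73, 0.89 and 0.80 without ctr_hEV 1 and ctr_hEV 3. Glns-ps1 shares 46.9% of its 31-base stretches with Glul, so reads of one can be placed on the other and its likeness is no separate observation. For Oat they were Ang (0.966), Bckdhb (0.955) and Car5a (0.942), for Otc Il1rap (0.986), BC024386 (0.970) and Acsm3 (0.966). Gls2 was closest to Tmem59 (0.945), Fbp1 (0.918) and Gpt (0.917), Nags to Prpsap1 (0.968), Irf2bp1 (0.967) and Pus1 (0.955), and Arg1 to Mtch1 (0.902), Josd1 (0.901) and Csf2rb (0.90).

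Set against each other, the periportal and pericentral genes gave a balance that followed ctr_hEV 1 and ctr_hEV 3 more than the vesicle group. The mean log2(FPKM + 1) of the 8 periportal genes was 6.92, 6.82, 7.16 and 7.02 in ctr_hEV 1 to 4 and 7.24, 7.33, 7.0 and 7.33 in RIC_hEV 1 to 4. That of Glul and Oat was 7.36, 8.6, 7.72 and 8.49 in ctr_hEV 1 to 4 and 8.44, 8.9, 8.2 and 8.36 in RIC_hEV 1 to 4. The periportal level minus the pericentral level was -0.44 and -0.56 in ctr_hEV 1 and ctr_hEV 3, and -1.79 to -1.03 in the other 6 libraries. By group it was -1.06 ± 0.665 in ctr_hEV and -1.25 ± 0.228 in RIC_hEV, a difference of -0.19, well inside the ctr_hEV spread, and it was 0.37 without ctr_hEV 1 and ctr_hEV 3. The Cps1 to Glul ratio in FPKM was 6.08, 2.10, 5.80 and 2.70 in ctr_hEV 1 to 4 and 3.29, 2.70, 3.37 and 5.12 in RIC_hEV 1 to 4. The Ass1 to Glul ratio was highest in ctr_hEV 3 (7.91) and ctr_hEV 1 (7.34) and lowest in ctr_hEV 2 (1.89). No test was made of this balance, since it was defined with earlier results known.

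**Figure D4:**
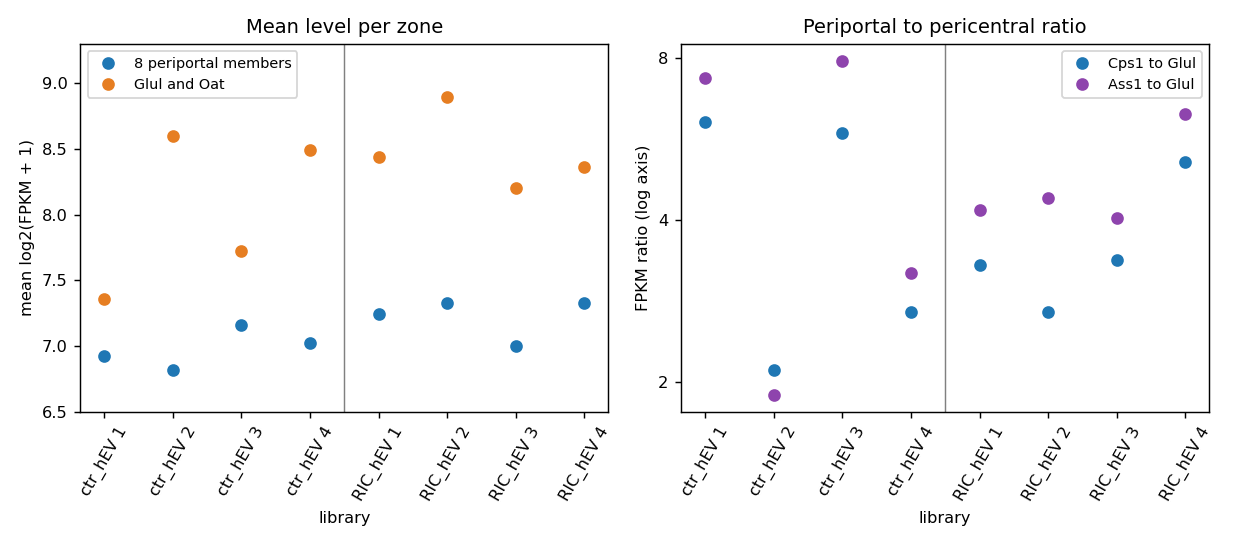
Left, the mean log2(FPKM + 1) of the 8 periportal genes (blue) and of Glul and Oat (orange) in each library; right, the FPKM ratios of Cps1 to Glul (blue) and Ass1 to Glul (purple) on a log axis. In ctr_hEV 1 and ctr_hEV 3 the pericentral mean is lowest, at 7.36 and 7.72, and the Cps1 to Glul ratio is highest, at 6.08 and 5.80.

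Genes around the cycle were counted in lists, with the same fit and no gene passing adjusted p in any list. Counts of higher and lower genes in the lists use limma's unadjusted p under 0.05. Over all tested genes, 2.63% met it as higher and 11.3% as lower, so equal counts are not an even balance. Of 19 enzymes that feed nitrogen in, 13 lay above the median gene, 0 were higher and 2 lower at limma's unadjusted p under 0.05, and the median log2 difference was -0.02. Over the 6 libraries other than ctr_hEV 1 and ctr_hEV 3, 9 of the 19 lay above the median gene, with a median of -0.04. Asrgl1, an asparaginase, was at 6.05 ± 0.714 FPKM in ctr_hEV and 4.22 ± 0.351 FPKM in RIC_hEV, with the RIC_hEV libraries below (log2 difference -0.43, limma adjusted p = 0.332). Among 17 ornithine, proline and polyamine enzymes, 3 were higher and 4 lower, with a median of -0.08 that turned to 0.05 without ctr_hEV 1 and ctr_hEV 3. Sms, spermine synthase, had the smallest p among them, and its log2 difference was -0.30 with overlapping groups (limma adjusted p = 0.354).

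Of 16 transporters, 3 were higher and 3 lower by unadjusted p, with a median of -0.04 (-0.01 without ctr_hEV 1 and ctr_hEV 3). Slc25a22, the mitochondrial glutamate carrier, was at 31.2 ± 4.29 FPKM in ctr_hEV and 43.8 ± 9.47 FPKM in RIC_hEV (log2 difference 0.47, limma adjusted p = 0.353), and its groups did not overlap. Slc25a13, the aspartate and glutamate carrier that supplies aspartate for Ass1, was at 75.3 ± 4.05 and 87.0 ± 2.87 FPKM (log2 difference 0.21, limma adjusted p = 0.354), also without overlap, and its log2 difference was 0.14 without ctr_hEV 1 and ctr_hEV 3. Aqp8, a water channel, was lower without overlap, at 25.9 ± 7.0 and 13.7 ± 2.81 FPKM (log2 difference -0.86, limma adjusted p = 0.332). Of 12 genes of bicarbonate supply and mitochondrial support, 1 was higher and 1 lower, with a median of 0.06 (0.02 without ctr_hEV 1 and ctr_hEV 3). That higher gene was Fh1, fumarase, which takes up the fumarate that Asl releases, at 73.3 ± 13.8 and 99.3 ± 9.72 FPKM (log2 difference 0.45, limma adjusted p = 0.351).

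A list of 21 hormone receptors, transcription factors and their usual target genes (Tat, Pck1 and G6pc, which are enzymes) had 19 above the median gene, 5 higher and 1 lower, with a median of 0.12. Of the 5, Tat and G6pc are such targets. Without ctr_hEV 1 and ctr_hEV 3, 15 lay above the median gene and the median was 0.12. Cebpb, a transcription factor of liver genes induced in fasting and inflammation, was at 108 ± 17.0 and 143 ± 7.84 FPKM (log2 difference 0.41, limma adjusted p = 0.332), without overlap. Nr3c1, the glucocorticoid receptor, was lower without overlap, at 9.71 ± 0.198 and 7.96 ± 0.851 FPKM (log2 difference -0.26, limma adjusted p = 0.354). Of 14 Wnt pathway and zonation genes, among them targets and feedback genes of the pathway, 1 was higher and 1 lower. Their median was -0.08 (-0.05 without ctr_hEV 1 and ctr_hEV 3). The ligand Wnt2 was at 1.94 ± 0.566 and 2.92 ± 0.201 FPKM (log2 difference 0.44, limma adjusted p = 0.341), without overlap, and its log2 difference was 0.21 without ctr_hEV 1 and ctr_hEV 3.

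The other zone markers gave 5 of 18 periportal genes higher and 0 lower, with a median of 0.16, and 4 of 21 pericentral genes higher and 1 lower, with a median of 0.22. Leaving out ctr_hEV 1 and ctr_hEV 3, the periportal median was 0.13 and the pericentral median was -0.20. Igfbp2, a secreted binding protein used as a periportal marker, was at 549 ± 25.2 and 762 ± 85.3 FPKM, and Lhpp, a phosphatase used as a pericentral one, at 21.9 ± 4.71 and 33.2 ± 6.48 FPKM, both without overlap (limma adjusted p = 0.332 each). Their log2 differences were 0.47 and 0.58, and without ctr_hEV 1 and ctr_hEV 3 they were 0.42 and 0.34. Of 20 secreted hepatocyte proteins, 1 was higher and 0 lower, with a median of 0.10 that was near 0 without ctr_hEV 1 and ctr_hEV 3. Markers of other cells had medians of -0.27 for 18 macrophage genes, -1.12 for 5 neutrophil genes, -0.36 for 14 stellate genes, -0.83 for 6 bile duct genes, -0.61 for 5 red blood cell genes, 0.03 for 12 endothelial genes and 0.14 for 6 lymphocyte and plasma cell genes. Summed macrophage markers ran from 876 to 1723 FPKM in ctr_hEV and from 702 to 1040 FPKM in RIC_hEV, and summed stellate markers from 146 to 332 and from 138 to 179 FPKM, with ctr_hEV 1 and ctr_hEV 3 highest in both lists. Of the genes named for these lists by smallest p, Igkc, an antibody light chain, was at 18.9 ± 5.30 and 44.9 ± 5.20 FPKM (limma adjusted p = 0.134), and Chil3, a macrophage product, at 7.09 ± 2.35 and 2.85 ± 0.670 FPKM (limma adjusted p = 0.332). Jchain, the joining chain of secreted antibodies, was at 1.31 ± 0.394 and 3.03 ± 0.596 FPKM (limma adjusted p = 0.235), and S100a9, a neutrophil granule protein, at 18.3 ± 12.2 and 4.69 ± 2.66 FPKM (limma adjusted p = 0.332). Rbp4, Apoa1, Clec4g and Alas2 had higher means in RIC_hEV, with log2 differences of 0.40, 0.23, 0.25 and 0.35, and Timp1 and Krt19 had lower ones, at -0.69 and -0.74 (limma adjusted p = 0.332 to 0.384 over these 6). Over the 6 libraries other than ctr_hEV 1 and ctr_hEV 3, these genes were at 0.22, 0.18, 0.06, 0.35, 0.0022 and -0.29. Without ctr_hEV 1 and ctr_hEV 3 the medians were -0.06 for macrophage, -0.62 for neutrophil, 0.11 for stellate, -0.02 for bile duct, 0.35 for red blood cell, 0.05 for endothelial and 0.35 for lymphocyte and plasma cell genes. Over that same reduced set the log2 differences of Cps1, Ass1, Asl and Slc25a15 were 0.33, 0.69, 0.74 and 0.41, as large as fitted over all 8 libraries. Relative to the median gene they were 0.36, 0.72, 0.77 and 0.44. The limma adjusted p there was 0.886, 0.795, 0.712 and 0.826. That set keeps ctr_hEV 2, the lowest of all 8 libraries for each of these 4 genes. Leaving out ctr_hEV 2 alone, Asl was at 0.51 and Slc25a15 at 0.23. With any 1 library left out, the lowest values were 0.22 for Cps1 and 0.38 for Ass1.

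Scaling bears on these counts. With each library centred on its median gene, the same 4 genes had an unadjusted limma p under 0.05 as higher, where 8.14% of all tested genes did. The groups were apart, with RIC_hEV higher, for 3 of the 10 (Cps1, Asl and Slc25a15) and for 4.22% of all tested genes. With quantile normalization, 2 of the 10 (Asl and Slc25a15) had such a p, where 5.37% of all tested genes did. The groups were apart, with RIC_hEV higher, for 0 of the 10 and for 2.57% of all tested genes. Asl was higher with an unadjusted limma p of 0.00092 to 0.0118 in all 18 alternative settings. Cps1 was the least firm of the 4, with a p under 0.05 in 10 of 18, and its p was 0.296 with quantile normalization.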

How the data were processed

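Liver RNA of 8 libraries (4 ctr_hEV, 4 RIC_hEV) was isolated by the Trizol method and sequenced from VAHTS universal kit libraries, per the labels. Tools in the submitters' processing notes are FastQC 0.11.9, Trimmomatic 0.38, HISAT2 2.2.1, HTSeq 0.13.5, R 3.4.1, DESeq2 1.18.1, and the build is mm10. The authors deposited 1 table of FPKM values; no label names the program or annotation behind them. Of its 55335 rows, 3225 without a gene name (0.176 to 0.207% of FPKM) were left out, and of rows sharing 1 of 80 symbols the one with the higher mean kept it. FPKM keeps no read counts, so depth (19300000 to 28800000 fragments) was estimated from the most frequent low FPKM times exon length, taken as 1 fragment.

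From the table, log2(FPKM + 1) of 11274 genes with a mean of at least 1 FPKM was tested with limma 3.58.1 (R 4.3.3, mean-variance trend, two-sided), with Benjamini-Hochberg adjustment over all of them at 0.05. A fold on this scale understates low genes. The procedure was tested on simulated data. Alternatives tried were another pseudocount, other filters, other scalings, no trend, a replicate block, and libraries left out. The 10 genes and 18 lists (270 symbols, 268 in the table, 13 on more than 1 list) were chosen with earlier results of these data known. Beside the 10, the text names from each list up to 3 genes of smallest p whose groups do not overlap, or else the one of smallest p, and for likeness the 3 most correlated named genes.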

Additional observations from a re-analysis of the deposited data

How the results depend on the processing

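Under 18 alternatives, 2 to 4 of the 10 genes had an unadjusted limma p under 0.05, and the share of all tested genes moved too. In the main fit that share was 2.63% as higher. With the replicate number as a block it was 4 of the 10, where 267 of 11274 tested genes had such a p as higher. Cps1 was at an unadjusted limma p of 0.0558 there. Those 4 therefore included a gene other than Cps1, Ass1, Asl and Slc25a15. On the TPM scale (each library scaled to the same FPKM total) it was 2 of the 10, where 195 of 11274 tested genes had such a p as higher. There the unadjusted limma p was 0.0812 for Cps1 and 0.0605 for Slc25a15. Rescaled without mitochondrially encoded genes it was 3, where 214 of 11274 did. None of the 10 genes passed limma's adjusted p of 0.05 under any of the 18. Over all genes, the count that passed was 4, and it was 2 with no filter, 1 with a mean FPKM of at least 5, 8 without ctr_hEV 1 and ctr_hEV 3, and from 1 (without RIC_hEV 3 or RIC_hEV 4) to 176 (without ctr_hEV 4) with 1 library left out. Without ctr_hEV 4 the lowest adjusted p among the 10 was 0.0685, for Asl. The periportal minus pericentral difference of -0.19 moved to 0.37 without ctr_hEV 1 and ctr_hEV 3, and ranged from -0.43 to 0.02 with 1 library left out. Cps1, Ass1, Asl, Slc25a15 and Oat kept their direction under all 18. Nags turned to 0.0692 with median centring and 0.0273 with quantile normalization, and Arg1 to -0.0877 with quantile normalization. Without ctr_hEV 1 and ctr_hEV 3, Otc turned to -0.29, Nags to 0.0932, Glul to -0.23 and Timp1, a stellate and matrix gene, to 0.0022. With 1 library left out, Otc ranged from -0.12 to 0.26, Arg1 from -0.0156 to 0.17, Gls2 from -0.0578 to 0.15 and Nags from -0.19 to 0.0112. The cause was not tested. With the replicate number as a block, 3 genes passed and 0 of the 10; same-numbered libraries deviated together with correlations of 0.05, 0.12, -0.01 and -0.23, so the numbers were not taken to pair them.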

Other observations

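The genes given here were chosen after their values were seen. Arg2, the mitochondrial arginase, was at 0.959 to 2.57 FPKM over the 8 libraries where Arg1 was at 543 to 794 FPKM, and its log2 difference was -0.20 (limma adjusted p = 0.554). The ammonia channel Rhcg was listed at 0 in all 8 libraries, and its relative Rhbg, a pericentral channel, was at 3.42 to 5.77 FPKM in ctr_hEV and at 4.48 to 7.46 FPKM in RIC_hEV. Rhbg shared its lowest libraries, ctr_hEV 1 and ctr_hEV 3, with Glul and Oat.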
